A study of Mus musculus with 16 samples.

Results

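The comparison was that of wild-type (WT) C2C12 cells at day 8 of differentiation (d8) with the same cells at day 0 (d0). It rests on 4 of the 16 RNA-seq libraries of the series, 2 for each day, and on the 14329 genes that passed a filter on low counts, of 49585 in the count table. C2C12 is an established mouse myoblast line. Cells were grown in medium with fetal bovine serum, and d8 cells had been moved at confluence to medium with a low level of equine serum. The table also held 4 libraries of AMPK-KO C2C12 cells, in which *Prkaa1* and *Prkaa2*, the genes of both catalytic subunits of AMP-activated protein kinase, were disrupted by CRISPR/Cas9. These were 2 libraries at d0 and 2 at d8, the labels do not say which knockout clone gave which library, and they enter here to estimate the spread and to ask where the change of WT cells differed. The WT cells carried no transgene according to the labels. The other 8 libraries of the series came from AMPK-null cells with TET2 knock-ins and were not used here.

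Total counts were 20484982 and 18776790 in the WT d0 libraries (replicates 1 and 2) and 17883417 and 21396328 in the WT d8 libraries. A gene at 3 counts, taken here as the floor of detection, stood at 0.145 and 0.163 CPM (counts scaled to the same library size) at d0 and at 0.165 and 0.141 CPM at d8. Between 17988 and 19275 genes had at least 1 count in a WT library. Nothing in the labels says that the replicates were separate cultures or passages, so the p-values measure only the spread between these libraries, which may be technical. All values are relative to the RNA of a whole culture, in which fewer cells of a kind and less RNA per cell cannot be told apart. Whether reads were counted by strand and how reads with several alignments were treated are not given in the sources used here, so counts of overlapping, antisense and near-identical genes are uncertain.

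The 2 WT d0 libraries were less alike than the 2 WT d8 libraries. The correlation of log2 CPM across genes was 0.965 between the d0 replicates and 0.980 between the d8 replicates, and genes are not independent replicates. WT d0 replicate 1 stood nearer to d8: its correlation was 0.935 with d8 replicate 1 and 0.916 with d8 replicate 2, against 0.897 and 0.890 for WT d0 replicate 2. Genes of mitosis and DNA replication together took 0.711% of the counts in WT d0 replicate 1 and 1.11% in WT d0 replicate 2. The share of counts on mitochondrial genes also parted the replicates, with 1.36% and 0.568% at d0 and 1.43% and 0.970% at d8. For the gene lists below, the counts of members that passed the test are therefore also given without WT d0 replicate 1. For the collagen and matrix list the median log2 fold change is given instead.

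Myoblasts are proliferating, mononucleated muscle precursor cells. When mitogens are withdrawn, they leave the cell cycle, turn on the transcription factor myogenin and the MEF2 family under the control of MyoD, fuse into multinucleated myotubes and assemble the contractile apparatus. Differentiated fibres also build the system that couples membrane depolarisation to calcium release, and the acetylcholine receptor clusters of the future synapse. Developmental isoforms of myosin and of the other sarcomere proteins come before the adult fast and slow isoforms.

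Promoters of genes from both ends of this programme are printed first, because the genes of each group moved together between the days. Whether the factors named below bind them was not tested. Each sequence holds the 250 bases before the RefSeq transcription start on GRCm38.p6, read in the direction of the gene. Capitals mark matches, on either strand, of the motifs named for that gene only. Motifs named for other genes are left in lower case, such as CCAAT in *Ttn* and the E-box CAGTTG in *Cdc20* and *Cdk1*. The capitals are thus no comparison of motifs between the genes. *Myog* (chr1:134289754-134290003, plus strand, capitals are E-boxes, CANNTG, the sites of MyoD-type factors) encodes myogenin. *Mybph* (chr1:134193198-134193447, plus strand, capitals are the E-box CAGCTG and, next to it, the MCAT box CATTCC of TEAD factors read on the other strand) encodes a myosin-binding protein. *Acta1* (chr8:123894776-123895025, minus strand, capitals are CAGCTG, a CArG box, the site of serum response factor, and CATTCC) encodes skeletal actin. *Ttn* (chr2:76982548-76982797, minus strand, capitals are a MEF2 site and the E-box CACCTG read on the other strand) encodes titin. *Cdc20* (chr4:118437344-118437593, minus strand), *Top2a* (chr11:99024190-99024439, minus strand) and *Cdk1* (chr10:69352913-69353162, minus strand) encode proteins of mitosis, and their capitals are the CHR element TTTGAA and the CCAAT box, the usual sites of the DREAM complex and of NF-Y at cell cycle genes.
Myog: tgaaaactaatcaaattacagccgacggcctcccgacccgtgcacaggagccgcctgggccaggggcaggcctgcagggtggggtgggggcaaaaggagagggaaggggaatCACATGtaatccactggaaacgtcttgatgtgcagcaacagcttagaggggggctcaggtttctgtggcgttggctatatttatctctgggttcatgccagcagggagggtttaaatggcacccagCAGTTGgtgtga
Mybph: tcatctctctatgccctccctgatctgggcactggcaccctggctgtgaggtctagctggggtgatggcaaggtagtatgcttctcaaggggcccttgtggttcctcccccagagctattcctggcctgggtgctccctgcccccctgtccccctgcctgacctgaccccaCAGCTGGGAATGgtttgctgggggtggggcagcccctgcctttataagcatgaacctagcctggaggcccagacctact
Acta1: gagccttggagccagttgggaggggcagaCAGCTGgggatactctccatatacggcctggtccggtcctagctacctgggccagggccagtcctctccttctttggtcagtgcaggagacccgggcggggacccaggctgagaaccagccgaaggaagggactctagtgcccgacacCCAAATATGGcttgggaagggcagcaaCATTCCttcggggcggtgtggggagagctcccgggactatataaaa
Ttn: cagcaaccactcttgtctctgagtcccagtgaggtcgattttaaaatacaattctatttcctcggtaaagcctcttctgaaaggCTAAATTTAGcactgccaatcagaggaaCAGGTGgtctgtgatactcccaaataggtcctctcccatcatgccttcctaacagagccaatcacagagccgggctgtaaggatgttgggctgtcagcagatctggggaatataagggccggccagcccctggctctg
Cdc20: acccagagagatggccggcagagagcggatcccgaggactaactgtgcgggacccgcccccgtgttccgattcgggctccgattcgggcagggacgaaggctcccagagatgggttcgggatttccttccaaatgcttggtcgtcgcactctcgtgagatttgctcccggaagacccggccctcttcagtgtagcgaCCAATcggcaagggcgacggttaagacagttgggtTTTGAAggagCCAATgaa
Top2a: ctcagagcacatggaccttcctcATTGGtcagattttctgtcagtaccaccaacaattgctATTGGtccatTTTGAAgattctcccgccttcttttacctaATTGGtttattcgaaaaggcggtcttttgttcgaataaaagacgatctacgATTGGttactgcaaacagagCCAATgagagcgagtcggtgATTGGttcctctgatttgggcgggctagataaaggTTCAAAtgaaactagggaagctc
Cdk1: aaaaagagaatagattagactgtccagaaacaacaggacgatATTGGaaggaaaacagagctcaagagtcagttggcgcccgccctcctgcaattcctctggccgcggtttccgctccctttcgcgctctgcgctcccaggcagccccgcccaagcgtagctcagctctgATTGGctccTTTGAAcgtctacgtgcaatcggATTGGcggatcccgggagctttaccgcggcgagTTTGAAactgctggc

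The E-box CANNTG was found in 66.0% of the 27025 RefSeq windows of this length, CAGCTG in 12.8%, CACCTG in 17.1%, the MEF2 site in 3.01%, the CArG box in 1.40%, CATTCC in 12.6%, TTTGAA in 16.3% and CCAAT in 34.5%, each on either strand. CAGCTG and CACCTG are forms of CANNTG and are counted in it too. Of the 29 thick filament genes tested, 25 had a window, of which 10 (40%) held CAGCTG, 6 (24%) a MEF2 site and 9 (36%) CATTCC. Of the 22 thin filament genes, 18 had a window, of which 8 (44.4%) held CAGCTG and 1 (5.56%) a MEF2 site, and of the 28 Z-disc genes, 23 had one, of which 3 held CAGCTG and 4 (17.4%) a MEF2 site. Of the 42 mitosis genes, 35 had a window, of which 26 (74.3%) held CCAAT, 10 (28.6%) TTTGAA and 3 (8.57%) CAGCTG. In the other lists with over 4 windows, the share with CCAAT ran from 11.1% (thin filament, 18 windows) to 83.3% (MHC class I, 12 windows). For CAGCTG, such lists outside the thick and thin filament ran from 7.14% (IGF axis and AMPK, 14 windows each) to 29.4% (Notch, 17 windows). CATTCC was in 27.8% of the thin filament windows. Among the 10444 genes tested that had a window, CAGCTG was found in 12.1%, the MEF2 site in 1.80%, CATTCC in 10.8%, TTTGAA in 10.5% and CCAAT in 36.7%. A match is a description of the letters in the window and not a site shown to be bound.

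Differentiation moved many genes, and the genes that rose moved further than those that fell. Of the 14329 genes tested, 828 (5.78%) were higher and 943 (6.58%) lower at d8 at an adjusted p under 0.05 (edgeR quasi-likelihood test with Benjamini-Hochberg adjustment), 1771 (12.4%) in all. Their median log2 fold change was 2.28 among the genes higher and -1.35 among the genes lower, against 0.01 over all genes tested. A change of at least 4 on the log2 scale was reached by 231 of the genes higher and by 19 of the genes lower. The libraries of the 2 days did not overlap in CPM for 8808 genes (61.5%), so that non-overlap alone says little here, and all 1771 genes called were among them.

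DESeq2 called 1398 genes higher (9.76%) and 1364 lower (9.52%), and 1729 of the 1771 genes were called in the same direction by both tools. Below, rose and fell stand for the edgeR call. Each count of list members that rose or fell is to be read against the 5.78% of all genes tested that rose and the 6.58% that fell. Counts of list members in DESeq2 are to be read against its 9.76% and 9.52%. Those without WT d0 replicate 1 are to be read against the totals of that fit, given below. The calls rest on few libraries. Without WT d0 replicate 1, 978 genes were higher and 1282 lower. Without WT d0 replicate 2 no gene passed the threshold in edgeR (lowest adjusted p = 0.0554, with 2971 genes at an unadjusted p under 0.05), without WT d8 replicate 2 none did either (lowest 0.0683, 2749 genes), and without WT d8 replicate 1 only 2 did (3201 genes). This bears on each count of genes of the edgeR test in WT cells below. Leaving out an AMPK-KO library gave 501 to 845 genes higher and 555 to 912 lower.

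**Figure D1:**
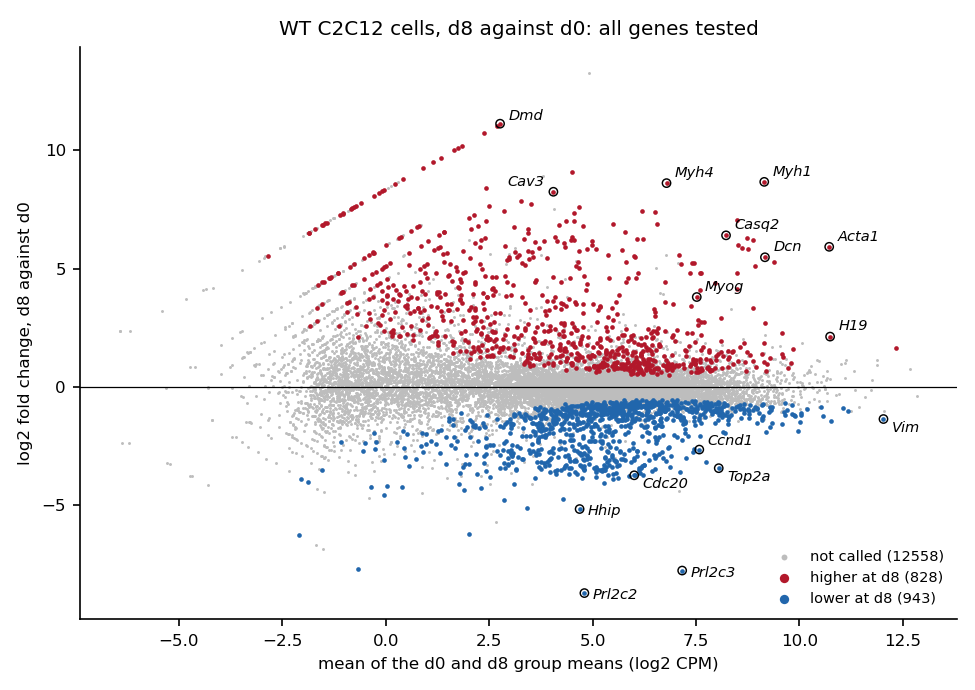
Each point is a gene tested, with the mean of the d0 and d8 group means in CPM (log2 axis) on the x axis and the log2 fold change of d8 against d0 on the y axis; red and blue points are the 828 genes called higher and the 943 called lower, and circles mark genes named in the text. The red cloud reaches further from 0 than the blue one. Genes on the diagonal lines at the left have 0 or a few counts at d0, where the fitted fold change depends on the prior count, and 4 genes without a count in any WT library are not drawn.

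The genes with the largest fitted rises held genes of the muscle fibre and others. *Dmd* (chrX), the gene of dystrophin, which links the actin cytoskeleton to the membrane, had no count in either d0 library and 179 and 369 at d8, at least 88.4-fold higher with d0 at the floor of 3 counts per library. *Limch1*, an actin-binding protein, rose at least 83.8-fold (no count at d0, 236 and 272 at d8), a rise that did not pass in DESeq2 (adjusted p = 0.112), and *Tekt5* at least 40.8-fold (no count at d0, 100 and 150 at d8). *Mybpc2*, the fast myosin-binding protein C, had 0 and 3 counts at d0 and 201 and 1704 at d8. Its ratio was 630, with a 95% counting interval of 215 to 3059 that leaves out the spread between libraries. *Cd36*, a fatty acid transporter, had 1 and 2 counts at d0 and 390 and 365 at d8, a ratio of 250 (counting interval 85.2 to 1214). *Hsd11b1*, the enzyme that reactivates glucocorticoids, had 28 and 14 counts at d0 and 3616 and 3495 at d8, a log2 fold change of 7.41 ± 0.91 (standard error, SE). Its gene overlaps *Lamb3* on the opposite strand. *Slc6a19*, a transporter of neutral amino acids, and *Fxyd6*, a regulator of the sodium pump, were also among them, with 2 and 0 counts at d0 against 199 and 245 at d8, and 3 and 1 against 260 and 666. *Olfr810*, annotated as an olfactory receptor, had 1 and 0 counts at d0 and 120 and 314 at d8, and *Cyp2f2*, a cytochrome P450, 2 and 1 and then 426 and 116. *Myh1*, *Myh4*, *Cav3*, *Myoz2* and *Mb* complete the 15 largest rises and are described with their groups.

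The largest falls belonged to other kinds of genes. *Prl2c2* and *Prl2c3*, 2 nearly identical members of the prolactin family known as proliferins, had 233 and 1846 counts and 1278 and 9401 counts at d0, and 2 and 3 and 32 and 19 counts at d8. Their log2 fold changes were -8.71 ± 1.31 and -7.76 ± 1.21 (edgeR adjusted p = 0.0146 and 0.0150), the d0 replicates differed several-fold, and the split of reads between such copies is uncertain. *Hhip*, a secreted antagonist of Hedgehog ligands, fell by 5.16 (540 and 1368 counts, then 17 and 39). *Itgb7*, an integrin subunit, fell by 5.10, *Sprr1a*, a protein of the cornified envelope, by 4.73, *Slco4a1*, an organic anion transporter, by 4.37, *BC030867* by 4.11 and *Fabp5*, a fatty acid carrier, by 4.04 on the log2 scale. *Ncapg*, *Ticrr*, *Pclaf*, *Ercc6l*, *Kif22* and *Bub1*, all of chromosome condensation, replication or mitosis, were the next in this order, with falls between 3.75 and 3.88. *Akap12*, a scaffold of protein kinase A, fell by 3.74.

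Myogenic transcription factors did not move as a block. Of 18 tested, 4 rose (22.2%) and 2 fell (11.1%; as many without WT d0 replicate 1), with a median log2 fold change of 0.12. *Myog* had 612 and 361 counts at d0 and 4621 and 9150 at d8. Both d8 libraries lay far above both d0 libraries, and the log2 fold change was 3.80 ± 0.56 (edgeR adjusted p = 0.0143). *Mef2c*, its partner in activating muscle genes, had a change of like size (311 and 190 counts, then 2330 and 5554, log2 fold change 3.94 ± 1.11), but its replicates spread more and it did not pass (adjusted p = 0.0608). *Mef2a* (0.80 ± 0.17) and *Mef2d* (0.66 ± 0.16) rose from 44.2 and 89.5 TPM (counts scaled by exon length and library size) at d0. *Tead4*, a TEAD factor of muscle genes, rose by 1.48 ± 0.32, with 411 and 418 counts at d0 and 1071 and 1273 at d8.

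The 2 determination factors of the myoblast were present on both days. *Myod1* had 1606 and 2450 counts at d0 and 2612 and 3508 at d8, a log2 fold change of 0.55 ± 0.41, which did not pass the test. *Myf5* had 1017 and 1141 counts at d0 and 659 and 699 at d8, a log2 fold change of -0.68 ± 0.21 (adjusted p = 0.0741). *Myf6*, a factor of late fibres, had 0 and 6 counts at d0 and 1 and 10 at d8 and was not tested. *Pax7*, the factor of satellite cells, had 167 and 169 counts at d0 and 138 and 177 at d8. The days overlapped, and its log2 fold change was -0.11 ± 0.51 (adjusted p = 0.907). *Tcf3*, an E-protein partner of MyoD, and *Eya1*, a transcription cofactor, fell by 0.88 ± 0.20 and 0.79 ± 0.16. In per-length terms, *Myog* went from 72.1 and 45.3 TPM at d0 to 630 and 1055 at d8, and *Myod1* stood at 152 and 247 and then at 286 and 325 TPM.

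**Figure D2:**
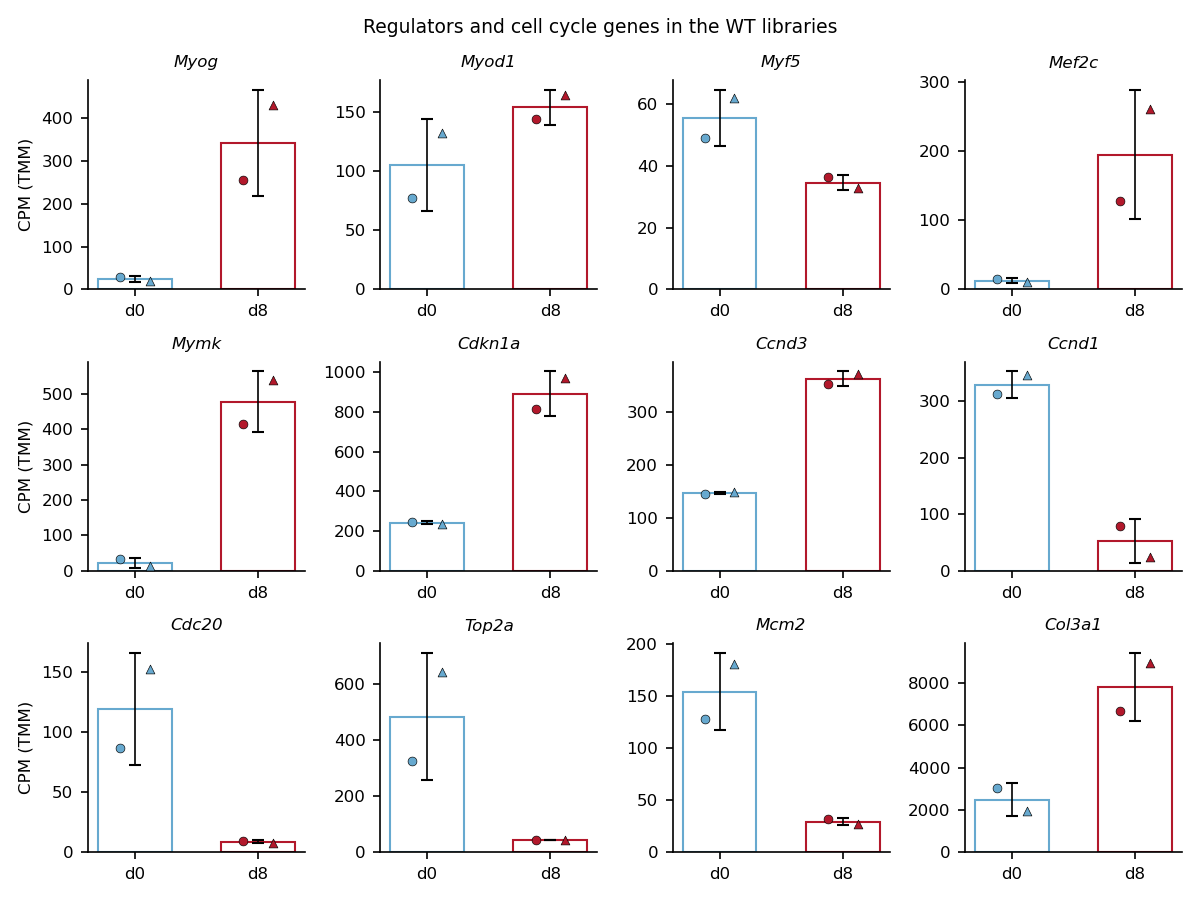
Each panel gives one gene in CPM after TMM normalization (linear axes from 0); circles are replicate 1 and triangles replicate 2 of the WT libraries at d0 (blue) and d8 (red), bars are group means and error bars the SD of 2 libraries. *Myog*, *Mymk*, *Cdkn1a* and *Ccnd3* are higher at d8, *Ccnd1*, *Cdc20*, *Top2a* and *Mcm2* lower, while *Myod1*, also higher in both d8 libraries, did not pass the test.

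Among 15 genes of satellite cells and quiescence, 2 rose and 1 fell (13.3% and 6.67%; 4 and 1 without WT d0 replicate 1). *Spry1*, an inhibitor of receptor tyrosine kinase signalling, had 187 and 120 counts at d0 and 840 and 780 at d8 (log2 fold change 2.41 ± 0.26, edgeR adjusted p = 0.0143). *Ncam1*, an adhesion molecule of myotubes, rose by 1.67 ± 0.37. *Met*, the receptor of hepatocyte growth factor, fell by 1.24 ± 0.30, from 2621 and 4442 to 1357 and 1717 counts.

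Of 29 genes of fusion and membrane repair, 7 rose and 4 fell (9 and 2 without WT d0 replicate 1). The genes of both muscle-specific fusion proteins were among those that rose. *Mymk* (myomaker) had 668 and 244 counts at d0 and 7549 and 11457 at d8, a log2 fold change of 4.39 ± 0.82 (edgeR adjusted p = 0.0211). *Mymx* (myomixer) had 49 and 32 counts at d0 and 883 and 1236 at d8, a log2 fold change of 4.69 ± 0.58 (adjusted p = 0.0143). *Cav3*, the caveolin of muscle membranes, went from 1 and 3 counts to 495 and 829, and *Trim72*, which patches membrane wounds, from 43 and 20 to 2517 and 4984. *Cdon*, a cell surface receptor that promotes differentiation, rose by 1.34 ± 0.21 from an already high level of 117 TPM. The annexin gene *Anxa2* fell by 1.18 ± 0.21, from 30636 and 26286 counts to 11644 and 13696, and *Dock1*, an activator of RAC in fusion, by 0.67 ± 0.15.

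Most of the sarcomere genes tested rose. Of 79 genes tested in the lists of thick filament, thin filament and Z-disc, 49 rose and none fell in edgeR, with a median log2 fold change of 4.12, and DESeq2 called 1 lower. Together they took 0.675% and 0.739% of the counts at d0 and 2.54% and 3.39% at d8. DESeq2 called 27 thick filament, 18 thin filament and 19 Z-disc and intermediate filament genes higher. In edgeR, thick filament genes rose in 22 of 29 cases (median 5.55), thin filament genes in 16 of 22 (median 4.82) and Z-disc and intermediate filament genes in 11 of 28 (median 2.20). Without WT d0 replicate 1 these counts were 16, 11 and 10.

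Embryonic, adult fast and slow myosin heavy chains rose. *Myh3*, the embryonic chain, had 248 and 243 counts at d0 and 13548 and 23516 at d8 (log2 fold change 6.20 ± 1.09, edgeR adjusted p = 0.0179). *Myh1*, the adult fast 2X chain, had 59 and 50 counts at d0 and 10956 and 35397 at d8 (8.67 ± 1.74, adjusted p = 0.0258). Both d8 libraries of *Myh1* lay far above d0, but far apart from each other. *Myh4*, the fast 2B chain, had 17 and 5 counts at d0 and 2342 and 6640 at d8 (8.61 ± 1.33, adjusted p = 0.0149), and *Myh7*, the slow chain, 8 and 4 at d0 and 783 and 812 at d8 (7.03 ± 1.52, adjusted p = 0.0365). *Myh2* (0 and 2, then 255 and 895 counts) and *Myh8*, the perinatal chain (3 and 4, then 214 and 1182 counts), did not pass, with adjusted p = 0.0516 and 0.0585. On the TPM scale, which allows levels of different genes to be compared, the d8 order was *Myh1* (656 ± 431, SD, n = 2), *Myh3* (562 ± 151), *Myh4* (135 ± 78.5), *Myh7* (17.4 ± 1.60), *Myh2* (14.4 ± 10.1) and *Myh8* (10.5 ± 9.62). The spreads of *Myh1* and *Myh3* overlap, as do those of the last 3, and these chains are close in sequence, so that reads may be shared among them.

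The light chains and the troponins also held embryonic, fast and slow isoforms. *Mylpf*, the fast regulatory light chain, had 825 and 491 counts at d0 and 19274 and 32867 at d8 (log2 fold change 5.29 ± 0.75, edgeR adjusted p = 0.0143). *Myl4*, the embryonic and atrial light chain, had 116 and 99 counts at d0 and 10017 and 18899 at d8 (7.03 ± 0.97, adjusted p = 0.0143). *Myl2*, the slow regulatory light chain, had no count at d0 and 401 and 2087 at d8, at least 390-fold more, but with d8 libraries this far apart it did not pass (adjusted p = 0.102). Fast and slow troponins both rose. Their d8 levels were, in TPM, *Tnni2* (fast) at 845 ± 316 and *Tnni1* (slow) at 786 ± 267, *Tnnt3* (fast) at 1684 ± 767, *Tnnt1* (slow) at 551 ± 242 and *Tnnt2* (embryonic and cardiac) at 406 ± 74.7. The log2 fold changes of *Tnnt2* and *Tnnt3* were 3.36 ± 0.61 and 5.99 ± 0.93, from 38.2 and 25.5 TPM at d0. The gene with the highest TPM of this group was *Acta1*, skeletal actin, with 1453 and 723 counts at d0 and 54398 and 77420 at d8 (5.92 ± 1.06, adjusted p = 0.0182), from 128 ± 55.4 to 7951 ± 1043 TPM. The cardiac isoform *Actc1* went from 125 and 142 counts to 3285 and 7254 and did not pass (adjusted p = 0.0550).

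**Figure D3:**
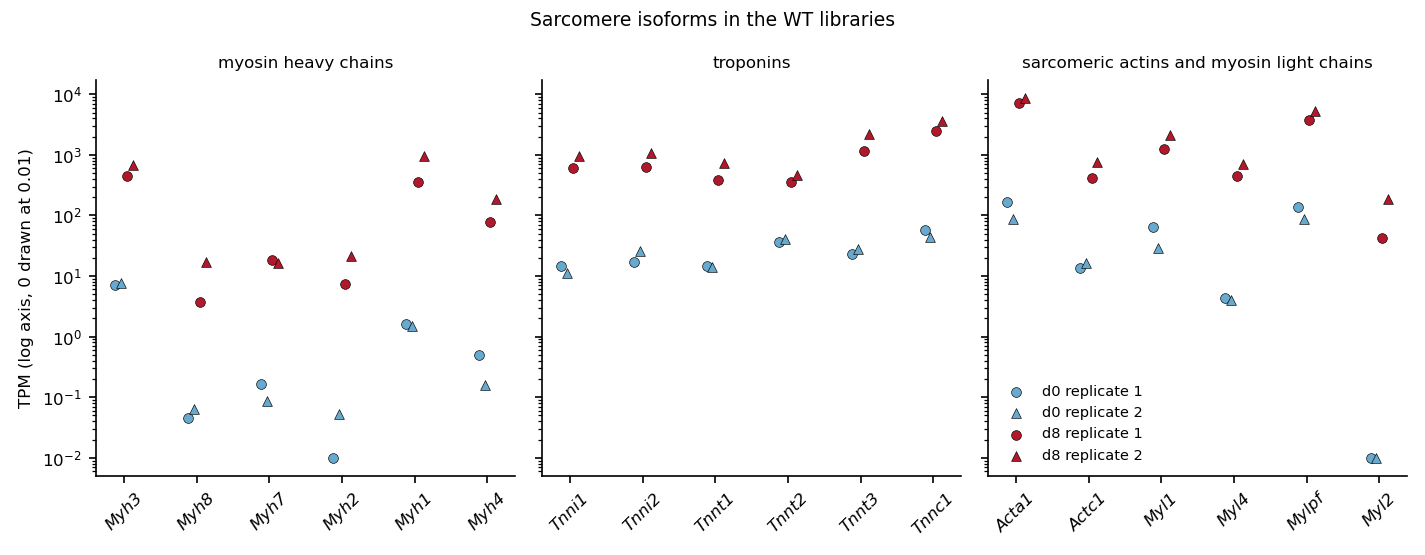
TPM of myosin heavy chains, troponins, sarcomeric actins and myosin light chains in each WT library on a log axis, with blue for d0, red for d8, circles for replicate 1 and triangles for replicate 2, and with a value of 0 drawn at 0.01. In every gene shown both d8 libraries lie above both d0 libraries, and the d8 replicates are furthest apart for *Myh8* and *Myl2*.

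Scaffold genes of the sarcomere were among those that rose. *Obsl1*, a linker of the sarcomere to the membrane systems, had 895 and 722 counts at d0 and 3890 and 4831 at d8, a log2 fold change of 2.42 ± 0.17, and stood among the genes with the lowest adjusted p of all (edgeR, 0.0106). *Myom1*, of the M-band, went from 31 and 37 to 1748 and 3643 counts. *Ttn*, the titin gene, rose by 2.81 ± 0.67 from 1023 and 824 counts, so that it was already expressed in d0 cells. *Synpo2l* (2.89 ± 0.29) and *Ldb3* (2.45 ± 0.39), of the Z-disc, rose from 50.5 and 14.7 TPM at d0, while *Myoz2*, the calsarcin of slow fibres, went from 7 and 3 counts to 527 and 1546. *Des*, the intermediate filament of muscle, had 24294 and 32300 counts at d0 and 49074 and 68527 at d8 and did not pass (1.02 ± 0.41, adjusted p = 0.143). *Trim63* (MuRF1), an E3 ligase of the sarcomere, rose from 14 and 6 counts to 306 and 567.

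Of 25 genes of excitation-contraction coupling, 18 rose and none fell, with a median of 2.30, and 13 rose without WT d0 replicate 1. *Cacna1s*, the voltage sensor of the transverse tubule, had 43 and 33 counts at d0 and 2084 and 3774 at d8 (log2 fold change 6.23 ± 0.91, edgeR adjusted p = 0.0143). *Ryr1*, the calcium release channel, had 539 and 301 counts at d0 and 5541 and 9062 at d8 (4.11 ± 0.63, adjusted p = 0.0149). *Casq2*, a calcium store protein of the reticulum and the isoform of slow and cardiac muscle, reached 796 TPM (156 and 118 counts, then 9221 and 14387), against 88.4 ± 72.2 TPM for the fast isoform *Casq1* (4 and 7 counts, then 358 and 1579). *Srl* and *Hrc*, other proteins of the reticulum, rose by 4.80 ± 0.57 and 5.27 ± 0.72, and *Atp2a1*, the fast calcium pump, by 4.83 ± 0.77. *Ryr3*, an isoform of the release channel in developing muscle, rose by 2.30 ± 0.24 at a low level, from 44 and 38 to 179 and 231 counts.

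Among 15 genes of the acetylcholine receptor and the neuromuscular junction, 5 rose and none fell (5 without WT d0 replicate 1), and the median log2 fold change was 0.93. DESeq2 called 8 of the 15 genes higher, and in edgeR more than 5 rose with the replicate block. *Chrng*, the fetal receptor subunit, had 269 and 259 counts at d0 and 5504 and 9817 at d8 (log2 fold change 4.82 ± 0.80, edgeR adjusted p = 0.0161). The adult subunit *Chrne* stayed near the floor with no count at d0 and 2 and 12 at d8 and was not tested. *Chrna1* was abundant on both days (10110 and 13329, then 19695 and 25839 counts) and did not pass (0.92 ± 0.40, adjusted p = 0.170). *Musk*, the receptor kinase that organises the synapse, rose from 579 and 511 to 1513 and 1583 counts, and its co-receptor *Lrp4* by 2.21 ± 0.54 on the log2 scale. *Colq*, the anchor of synaptic acetylcholinesterase, had 2 and 1 counts at d0 and 158 and 169 at d8, and *Ache*, the esterase, 1 and 0 and then 40 and 62.

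Of 19 genes of the dystrophin-glycoprotein complex, 8 rose and none fell in edgeR (8 rose without WT d0 replicate 1), while DESeq2 called 1 lower. Beside *Dmd*, the sarcoglycan gene *Sgca* (2.54 ± 0.52) and, by about 1 on the log2 scale, *Sgcb*, *Sspn*, *Dag1* and *Lama2* rose. *Nos1*, the neuronal nitric oxide synthase that binds to this complex in muscle, had 13 counts in each d0 library and 468 and 1154 at d8, a log2 fold change of 5.90 ± 0.45 (edgeR adjusted p = 0.0106).

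**Figure D4:**
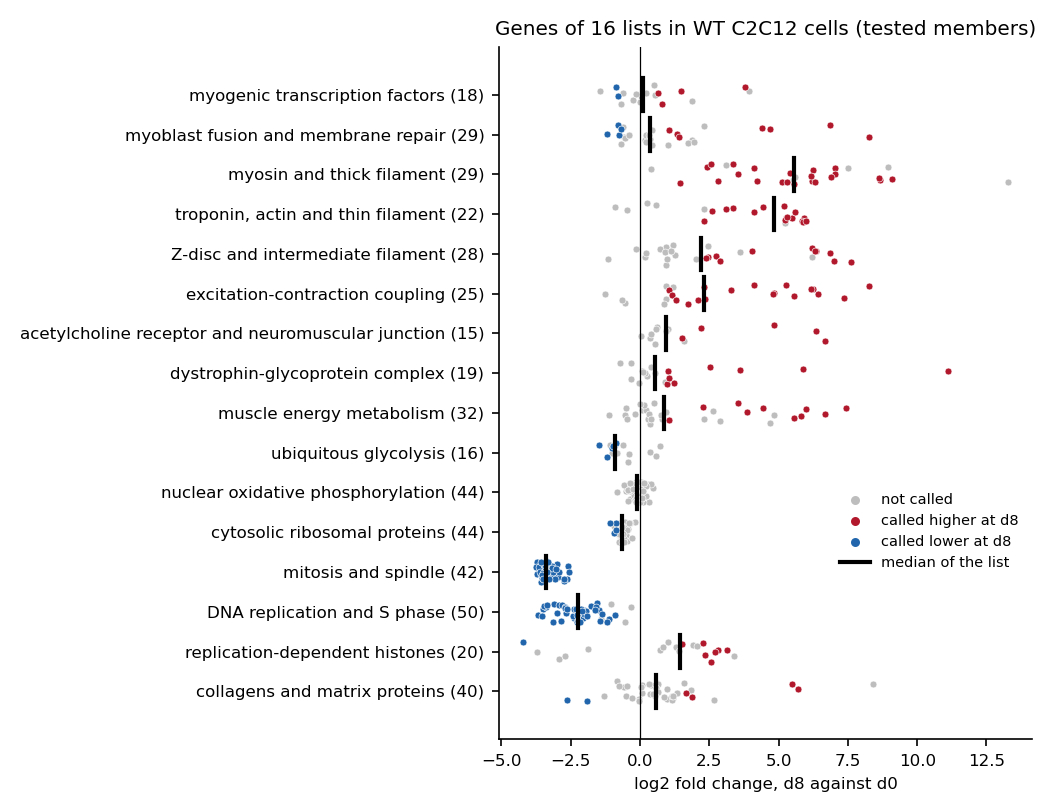
Each point is a tested member of one of 16 gene lists, placed by its log2 fold change of d8 against d0 in WT cells (x axis); red and blue points passed the test, grey points did not, black bars are list medians, and the number of tested members stands in brackets. Sarcomere and coupling lists lie to the right of 0, the mitosis and replication lists to the left, and nuclear oxidative phosphorylation is centred near 0. Beyond 8 lie *Myh1* and *Myh4*, which had counts in both d0 libraries, and genes with 0 to 3 counts in a d0 library, whose place depends on the prior count.

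Muscle energy metabolism was called in part. Of 32 genes, 10 rose and none fell (6 without WT d0 replicate 1), with a median log2 fold change of 0.88. *Ckm*, the muscle creatine kinase, had 11 and 27 counts at d0 and 565 and 2018 at d8 (log2 fold change 5.99 ± 1.05, edgeR adjusted p = 0.0179). *Mb*, myoglobin, had 14 and 19 counts at d0 and 1452 and 4510 at d8 (7.42 ± 1.16, adjusted p = 0.0149), in a gene that overlaps *Apol6*. Among muscle isoforms of the glycogen and glycolysis enzymes, *Pygm* rose from 21 and 25 to 848 and 1857 counts, *Pfkm* by 2.27 ± 0.39 and *Pgam2* by 3.87 ± 0.73.

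The isoforms of glycolysis that most cells use gave calls in the other direction. Of 16 ubiquitous glycolysis genes, 6 fell and none rose (9 without WT d0 replicate 1). The median log2 fold change was -0.89, and the list took 0.923% and 1.24% of the counts at d0 and 0.598% and 0.581% at d8. *Eno1* had 26424 and 32682 counts at d0 and 11244 and 9934 at d8 (log2 fold change -1.49 ± 0.25, edgeR adjusted p = 0.0169), and *Pkm*, *Pgk1*, *Ldha*, *Pgam1* and *Hk1* fell by 0.88 to 1.20. *Pgam1* at 505 and then 259 TPM stayed above its muscle isoform *Pgam2*, which went from 7.36 to 112 TPM. *Pfkm* at 311 TPM at d8 stood above *Pfkl* at 62.2 TPM.

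None of 44 nuclear genes of oxidative phosphorylation passed in edgeR (3 had an unadjusted p under 0.05), and 1 fell in DESeq2. Their median log2 fold change was -0.11, and the lowest was -0.84 (*Cycs*, cytochrome c), which passed with the replicate number as a block (edgeR adjusted p = 0.0495). Without WT d0 replicate 1, 2 of them fell. None of 11 mitochondrially encoded genes passed in edgeR or DESeq2 or had an unadjusted p under 0.05, with a median of 0.39 and 1 of 11 free of overlap between the days. *mt-Co1* stood at 4529 and 1675 CPM at d0 and at 4545 and 3063 CPM at d8, so that the days overlapped. Of the 11, 1 rose without WT d0 replicate 1, and the median was then 1.07.

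Genes of cell division fell nearly as a whole. All 42 mitosis and spindle genes tested were called lower, with log2 fold changes from -3.75 to -2.55 and a median of -3.38, and so were 46 of 50 DNA replication and S phase genes (median -2.26). Without WT d0 replicate 1 the counts were 42 and 45. Both lists together took 0.711% and 1.11% of the counts at d0 and 0.169% and 0.145% at d8. *Cdc20*, the activator of the anaphase-promoting complex, had 1795 and 2812 counts at d0 and 176 in each d8 library (log2 fold change -3.73 ± 0.39, edgeR adjusted p = 0.0143). *Top2a*, topoisomerase II alpha, had 6727 and 11897 counts at d0 and 825 and 943 at d8 (-3.43 ± 0.45, adjusted p = 0.0143). *Plk1*, the polo-like kinase of mitosis, had 1016 and 1947 counts at d0 and 99 and 135 at d8. In each of these genes d0 replicate 2 was the highest library, and the d8 replicates were close to each other.

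Among replication genes, *Mcm2*, a subunit of the replicative helicase, had 2656 and 3331 counts at d0 and 577 and 587 at d8 (log2 fold change -2.38 ± 0.26, edgeR adjusted p = 0.0143). *Tk1*, thymidine kinase, fell by 3.41 ± 0.40 and *Orc1*, of the origin recognition complex, by 3.55 ± 0.51, from 190 and 196 to 16 and 17 counts. *Lig1*, *Pola1*, *Prim1* and *Mcm7* fell by 2.03 to 2.39. The replication-dependent histone genes, whose messages lack a poly(A) tail and peak in S phase, had few counts. The list took 0.00955% and 0.00774% of the counts at d0 and 0.0382% and 0.0333% at d8. With so few counts, whether their S phase messages fell with the replication genes could not be read. Of 60 listed, 20 passed the filter on low counts, and of these 7 rose and 1 fell (3 and 2 without WT d0 replicate 1). *Hist1h1c* had 1351 and 762 counts at d0 and 5007 and 5091 at d8 (2.27 ± 0.40) and *Hist1h2bc* 340 and 196 and then 1287 and 1414 (2.34 ± 0.29). Both are also known to give polyadenylated messages in non-dividing cells. *Hist1h2af* fell from 27 and 31 counts to 0 and 3. These genes are close copies of each other, and the split of reads among them is uncertain.

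Of 25 regulators of cell cycle exit, 3 rose and 7 fell (3 and 7 without WT d0 replicate 1). *Cdkn1a* (p21), a CDK inhibitor that MyoD is known to induce, had 5139 and 4374 counts at d0 and 14739 and 20663 at d8 (log2 fold change 1.88 ± 0.29, edgeR adjusted p = 0.0149). *Ccnd3*, the D cyclin of myotubes, had 3006 and 2743 counts at d0 and 6385 and 7920 at d8 (1.30 ± 0.19), and *Ccnd1*, the D cyclin of cycling myoblasts, 6497 and 6384 at d0 and 1450 and 542 at d8 (-2.65 ± 0.65, adjusted p = 0.0417). *Gadd45a*, a stress and growth arrest gene, rose by 2.61 ± 0.52. The kinases *Cdk4* and *Cdk6* fell by 1.12 ± 0.18 and 1.05 ± 0.20, *Rbl1* (p107) by 2.09 ± 0.22 and *Trp53* by 1.08 ± 0.20. The INK4 inhibitors *Cdkn2c* and *Cdkn2d* were lower as well, by 1.13 ± 0.22 and 0.79 ± 0.19. *Rb1* (0.63 ± 0.22, adjusted p = 0.104), *Cdkn1b* (p27, 0.01 ± 0.29) and *Cdkn1c* (p57, 0.80 ± 0.59, 37 and 22 counts and then 59 and 42) did not pass.

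Growth factor genes of the IGF axis, an autocrine promoter of differentiation, were among those that rose. Of 17 genes, 4 rose and 1 fell (2 and 1 without WT d0 replicate 1). *Igf2* had 100 and 43 counts at d0 and 633 and 1124 at d8 (log2 fold change 3.61 ± 0.86, edgeR adjusted p = 0.0397). *Igf1* had 377 and 15 counts at d0 and 3952 and 4174 at d8 (4.44 ± 1.10, adjusted p = 0.0435), with d0 replicates far apart from each other. *H19*, the noncoding RNA of the same imprinted locus as *Igf2*, had 12487 and 12405 counts at d0 and 44233 and 66716 at d8 (2.13 ± 0.27, adjusted p = 0.0143). *Igfbp4*, an IGF-binding protein, rose by 3.17 ± 0.80 (edgeR adjusted p = 0.0507 with the replicate block), and *Irs1*, the adaptor of the IGF and insulin receptors, fell by 1.11 ± 0.28. None of 19 other imprinted genes and noncoding host RNAs passed in edgeR (3 had an unadjusted p under 0.05, and DESeq2 called 1 higher and 1 lower), while 2 were higher and 1 lower without WT d0 replicate 1.

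Notch and BMP are pathways that hold back differentiation, and the share of their genes that rose was near that of all genes tested (5.78%). Of 20 Notch genes 1 rose, *Hes6* (792 and 794 counts, then 2133 and 1914), which is known to oppose HES1. *Jag2* fell short of the threshold (-1.49 ± 0.48, edgeR adjusted p = 0.0854). Of 23 BMP genes 2 rose, the antagonist *Chrd* (179 and 74 counts, then 525 and 768) and the receptor *Bmpr2* (0.64 ± 0.17). Without WT d0 replicate 1, none rose and 1 fell in the Notch list, and 3 rose in the BMP list. Among 30 immediate early and serum response genes 1 rose, *Klf10* (none rose and 1 fell without WT d0 replicate 1), and their share of counts was 0.292% and 0.268% at d0 and 0.612% and 0.257% at d8, so that d8 replicate 1 stood apart. The AMPK-KO d8 libraries parted in the same way, with 0.549% in replicate 1 and 0.287% in replicate 2. *Fosl2* and *Junb* also rose with the replicate block (edgeR adjusted p = 0.0176 and 0.039). *Ccn2*, a target of YAP and TGF-beta, had 6164 and 2044 counts at d0 and 29397 and 5529 at d8 (adjusted p = 0.264).

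Of 40 collagen and matrix genes, 4 rose and 2 fell (10% and 5%, against 5.78% and 6.58% of all genes tested). Their median log2 fold change was 0.59, and 1.45 without WT d0 replicate 1. In DESeq2 9 of these 40 genes were higher and 4 lower. The share higher was thus above the 9.76% of all genes tested in that tool. *Dcn* (decorin), a small proteoglycan, had 787 and 227 counts at d0 and 15956 and 29147 at d8 (log2 fold change 5.48 ± 0.62, edgeR adjusted p = 0.0143). *Lum* (lumican), of the same family, had 10 and 3 counts at d0 and 164 and 542 at d8 (5.69 ± 0.93). *Col3a1*, a fibrillar collagen, had 62793 and 36060 counts at d0 and 121118 and 190480 at d8 (1.65 ± 0.36, adjusted p = 0.0306), and *Fbn1*, fibrillin, rose by 1.87 ± 0.43. The basement membrane genes *Nid1* and *Col18a1* fell by 1.91 ± 0.28 and 2.64 ± 0.51. *Postn* (periostin) rose by 4.83 ± 1.19, with 897 and 92 counts at d0 and 9186 and 18606 at d8. Of 26 matrix proteases and inhibitors, 5 rose and 1 fell (10 and 2 without WT d0 replicate 1). DESeq2 called 12 of these 26 genes higher and 2 lower, and edgeR with the replicate block also called more of them higher. *Adamts4*, an aggrecanase, had 632 and 507 counts at d0 and 3218 and 3103 at d8 (2.48 ± 0.17, edgeR adjusted p = 0.0106), in a gene that overlaps another gene. *Plaur*, the urokinase receptor, fell by 2.58 ± 0.56.

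*Dcn* and *Lum* are also markers of fibroblasts. Of 11 fibroblast markers tested, 3 rose (*Dcn*, *Lum* and *Dpt*) and none fell in edgeR (3 rose without WT d0 replicate 1), DESeq2 called *Twist2* lower, and the list took 0.179% and 0.0798% of the counts at d0 and 0.246% and 0.394% at d8. *Ly6a* was the most abundant of them on the TPM scale, with 767 TPM at d0 and 1384 at d8. *Col1a1* had 11595 and 5182 and then 8152 and 30872 counts and *Prrx1* went from 8110 and 3490 to 3566 and 3949; neither passed (edgeR adjusted p = 0.243 and 0.303). The part of such cells in the matrix changes was not tested. C2C12 myoblasts can also turn towards fat or bone. Of 5 adipocyte markers tested none passed in edgeR or DESeq2 (1 had an unadjusted p under 0.05, 1 rose without WT d0 replicate 1, and *Pparg* fell with the replicate block, edgeR adjusted p = 0.0378), and the defining markers *Adipoq* (2 and 0, then no counts), *Fabp4* (1 and 1, then 1 and 2) and *Plin1* were at or near 0. Of 5 osteoblast and chondrocyte markers 1 rose, *Col10a1* (4 and 2 counts, then 86 and 28; none without WT d0 replicate 1), while *Ibsp* had no count and *Sp7* 2 and 1 and then 4 and 0. Other members of both lists were expressed on both days. The adipocyte list summed to 119.7 and 49.97 TPM at d0 and to 89.55 and 57.23 at d8. The osteoblast and chondrocyte list summed to 144.21 and 151.34 TPM at d0 and to 216.69 and 160.65 at d8.

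Endothelial markers summed to 5.49 and 5.00 TPM at d0 and 3.64 and 8.96 at d8. Macrophage and leukocyte markers summed to 29.4 and 34.4 TPM at d0 and 26.5 and 20.1 at d8, so that some were expressed. *Tie1*, *Erg* and *Adgre1* had no count in any WT library. *Cdh5* had 2 and 1 counts and then 0 and 1, and *Ptprc* 0 and 0 and then 1 and 0. Of 3 and 4 markers tested in these lists none passed in edgeR, with or without WT d0 replicate 1, or in DESeq2, or had an unadjusted p under 0.05. Of the cardiac markers, *Nppa* and *Hand2* had no count in a WT library. *Gata4*, a transcription factor of heart and endoderm, had 540 and 747 counts at d0 and 353 and 323 at d8 (-0.94 ± 0.27, edgeR adjusted p = 0.0617), and *Myh6*, the cardiac alpha myosin chain, 0 and 2 and then 35 and 71. None of 5 cardiac markers passed in edgeR (3 had an unadjusted p under 0.05), while DESeq2 called *Myh6* higher and *Gata4* lower, *Myh6* passed with the replicate block (edgeR adjusted p = 0.0351) and 1 marker fell without WT d0 replicate 1. The defining markers of the muscle lineage, *Myod1*, *Myf5* and *Des*, were present in every WT library. Genes named as markers of neurons were also counted. Of 7 tested, 2 fell and none rose (3 fell without WT d0 replicate 1). DESeq2 called 5 of these 7 genes lower and none higher, and 5 had an unadjusted p under 0.05 in edgeR. *Nefm*, a neurofilament, had 985 and 2514 counts at d0 and 285 and 140 at d8 (log2 fold change -3.05 ± 0.74, edgeR adjusted p = 0.0415), in a gene that overlaps *Nefl*. *Stmn2*, a microtubule regulator, had 2388 and 2772 counts at d0 and 395 and 353 at d8 (-2.79 ± 0.69, adjusted p = 0.0426). *Tubb3* had 2676 and 4243 counts at d0 and 1746 and 1351 at d8 and *Gap43* 551 and 1483 and then 101 and 225. Neither passed, but *Gap43* did with the replicate block (edgeR adjusted p = 0.0163). Of 4 epithelial markers tested 1 fell, also without WT d0 replicate 1.

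Genes for the modification of DNA were read because the study asks about TET2. Of 14 tested, 3 fell and none rose (4 fell without WT d0 replicate 1). *Uhrf1*, which brings the maintenance methyltransferase to replicated DNA, had 2794 and 3704 counts at d0 and 362 and 229 at d8 (log2 fold change -3.45 ± 0.61, edgeR adjusted p = 0.0181). *Dnmt1*, that methyltransferase, had 2541 and 2891 counts at d0 and 863 and 826 at d8 (-1.69 ± 0.28, adjusted p = 0.0156), and *Mbd4*, a glycosylase, 119 and 164 and then 39 and 47. The 3 dioxygenase genes overlapped between the days: *Tet1* had 76 counts in each d0 library and 67 and 87 at d8, *Tet2* 462 and 254 and then 314 and 481, and *Tet3* 1086 and 817 and then 859 and 1062. At d8 *Tet3* stood at 10.7 TPM, *Tet2* at 4.35 and *Tet1* at 0.927. The de novo enzymes *Dnmt3a* and *Dnmt3b* did not pass, with 0.37 ± 0.33 and -0.41 ± 0.36.

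AMPK is a kinase of 3 subunits, catalytic alpha and regulatory beta and gamma, each with several isoforms. Of 14 genes of the kinase and of those upstream of it, 2 rose (14.3%, against 5.78% of all genes tested), and without WT d0 replicate 1 none rose and 1 fell. *Prkag3*, the gamma subunit of fast muscle, had 34 and 20 counts at d0 and 614 and 1290 at d8 (log2 fold change 5.10 ± 0.99, edgeR adjusted p = 0.0231). *Prkaa2*, the catalytic subunit common in muscle, had 35 and 33 counts at d0 and 113 and 216 at d8 (2.23 ± 0.46, adjusted p = 0.0264). *Prkaa1*, the other catalytic subunit, had 3287 and 2925 counts at d0 and 2290 and 2661 at d8 and did not pass (-0.34 ± 0.13, adjusted p = 0.120), and at d8 it was still the higher one, with 99.4 TPM against 3.78 for *Prkaa2*. In the libraries labelled AMPK-KO, *Prkaa1* had 1522 and 1669 counts at d0 and 2043 and 1698 at d8, and *Prkaa2* 4 and 9 and then 31 and 17, so that messages of disrupted genes were still counted. *Ywhab*, the 14-3-3 beta gene, had 7429 and 7315 counts at d0 and 5160 and 6833 at d8 (-0.32 ± 0.16, adjusted p = 0.221). Of the 7 genes of the 14-3-3 family 2 fell, *Ywhah* by 1.27 ± 0.21 and *Ywhaq* by 0.81 ± 0.20 (3 without WT d0 replicate 1).

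Of 44 cytosolic ribosomal protein genes, all had a log2 fold change below 0 (median -0.65), but only 4 passed, *Rpsa*, *Rps2*, *Rps19* and *Rplp0* (9.09%, against 6.58% of all genes tested), and without WT d0 replicate 1 the count was 25. DESeq2 called 24 of the 44 lower, against 9.52% of all genes tested. In edgeR 36 had an unadjusted p under 0.05, as had 4456 of all 14329 genes tested. The share of all counts on ribosomal protein genes went from 2.22% and 2.89% at d0 to 1.52% and 1.70% at d8. Of 29 genes of cholesterol synthesis and SREBP targets, 4 fell (1 without WT d0 replicate 1), among them *Fasn*, the fatty acid synthase, by 0.99 ± 0.17 and *Acly* by 0.90 ± 0.20. Of 23 antioxidant genes 4 fell, *Gsr*, *Nqo1*, *Gclm* and *Srxn1*, known targets of NRF2, and 1 rose, *Gpx3* (2 rose and 6 fell without WT d0 replicate 1). *Nqo1* had 815 and 561 counts at d0 and 126 and 96 at d8 (log2 fold change -2.61 ± 0.48, edgeR adjusted p = 0.0197).

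Of 25 genes of atrophy, autophagy and lysosome, 5 rose (9 without WT d0 replicate 1): *Fbxo32* (atrogin-1) by 1.18 ± 0.20, *Capn3*, *Map1lc3a*, *Map1lc3b* and *Ctsd* (edgeR adjusted p = 0.0525 with the replicate block). Of 24 genes of the endoplasmic reticulum and integrated stress response 2 rose (8.33%, against 5.78% of all genes tested), *Dnajb9* (1.16 ± 0.22) and *Herpud1* (1.69 ± 0.36), and 3 rose and 1 fell without WT d0 replicate 1. Of 17 potassium and other ion channels 5 rose (3 rose and 1 fell without WT d0 replicate 1), among them *Kcnj12*, an inward rectifier, with 25 and 19 and then 158 and 150. Of 23 chemokine, cytokine and complement genes 3 rose (7 without WT d0 replicate 1), *Serping1*, the inhibitor of complement C1 (174 and 92 counts, then 1102 and 1432), *Lif* and *Cxcl14* (adjusted p = 0.0515 in DESeq2). None of 25 interferon-stimulated genes (2 at an unadjusted p under 0.05, 1 higher in DESeq2) and none of 14 genes of MHC class I (none in either) passed in edgeR, with or without WT d0 replicate 1. Of 23 genes of smooth muscle and myofibroblasts 3 rose, *Mylk*, *Postn* and *Tgfbr2* (edgeR adjusted p = 0.0567 with the replicate block), and 1 fell, *Myl9* (4 and 0 without WT d0 replicate 1).

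By level, the transcripts at the top changed as well. On the TPM scale the first at d0 among messenger RNAs were *Lgals1* (galectin-1), *Eef1a1*, *Spp1* (osteopontin) and *Actb*, at 12105, 11814, 7661 and 7450 TPM. At d8 *Acta1* (7951), *Mylpf* (4516) and *Sparc* (5055) had joined the 10 highest. *Lgals1* fell by 1.03 ± 0.24 (edgeR adjusted p = 0.0349) and *Vim* (vimentin), the intermediate filament of myoblasts, by 1.36 ± 0.23 (adjusted p = 0.0169), from 111254 and 122908 counts to 48392 and 43275. *Actb* had 110672 and 108784 counts at d0 and 59770 and 48447 at d8 and did not pass (-1.01 ± 0.30, adjusted p = 0.0716).

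The genes called in the 2 directions did not differ much in structure. Median merged exon length was 4111 bases for genes higher, 4363 for genes lower and 4180 for all genes tested. In the same order, the median GC content of the longest transcript of each gene was 51.6%, 48.3% and 49.5%. Protein-coding genes made up 92.8% of the genes higher, 96.2% of the genes lower and 88.9% of all. These are descriptions with no test.

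The same contrast in the AMPK-KO cells, with their own d0 libraries, called 689 genes higher (4.81%) and 709 lower (4.95%). The difference of the changes between WT and AMPK-KO cells was then tested itself. No gene passed at an adjusted p under 0.05 in edgeR (0.0%), 729 genes had an unadjusted p under 0.05 (5.09%), and DESeq2 called 60 (0.419%). The counts of calls in the 2 genotypes are thus no evidence of a difference by gene. The 2 AMPK-KO d8 libraries stood apart from each other. The 3 sarcomere lists took 1.13% and 3.33% of their counts, and interferon-stimulated genes 0.231% and 0.0208%. *Myog* had 12 counts in each AMPK-KO d0 library and 1567 and 3943 at d8, against the WT values above. *Myod1* had 151 and 291 and then 1425 and 2379. *Pax7* had 0 and 1 counts at d0 and 0 and 2 at d8 in AMPK-KO cells.

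The genes with the lowest p for the difference are given by value. *Nos1*, which rose in WT cells (above), had 29 and 34 counts at d0 and 34 and 30 at d8 in AMPK-KO cells. The difference of the log2 fold changes was 6.03 ± 0.58 (edgeR, unadjusted p = 1.4e-05, adjusted p = 0.196). *Shroom3*, an actin-binding regulator of cell shape, had 38 and 13 counts at d0 and 585 and 669 at d8 in WT cells, and 9 and 10 and then 14 and 11 in AMPK-KO cells. *Tbx15*, a transcription factor of muscle and fat, had 684 and 637 and then 2183 and 3432 counts in WT cells, and 570 and 663 and then 958 and 899 in AMPK-KO cells. *Kcnj12*, *Slc2a6* and *Tspan32* followed. In the other direction *Igfbp5*, an IGF-binding protein of myotubes, had 45128 and 32034 counts at d0 and 57624 and 65044 at d8 in WT cells, against 28197 and 43501 and then 269395 and 238317 in AMPK-KO cells, a difference of -2.01 ± 0.34 (edgeR adjusted p = 0.845). *Pdlim3*, a Z-disc protein, had 1880 and 2172 counts at d0 in WT cells and 60 and 149 in AMPK-KO cells, and 2486 and 5333 and then 1833 and 2078 at d8. In *Gm14150*, *Enho*, *Asb2* and *Il17rc* the change was also more negative in WT cells. None of these differences passed the adjustment over all genes in edgeR.

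**Figure D5:**
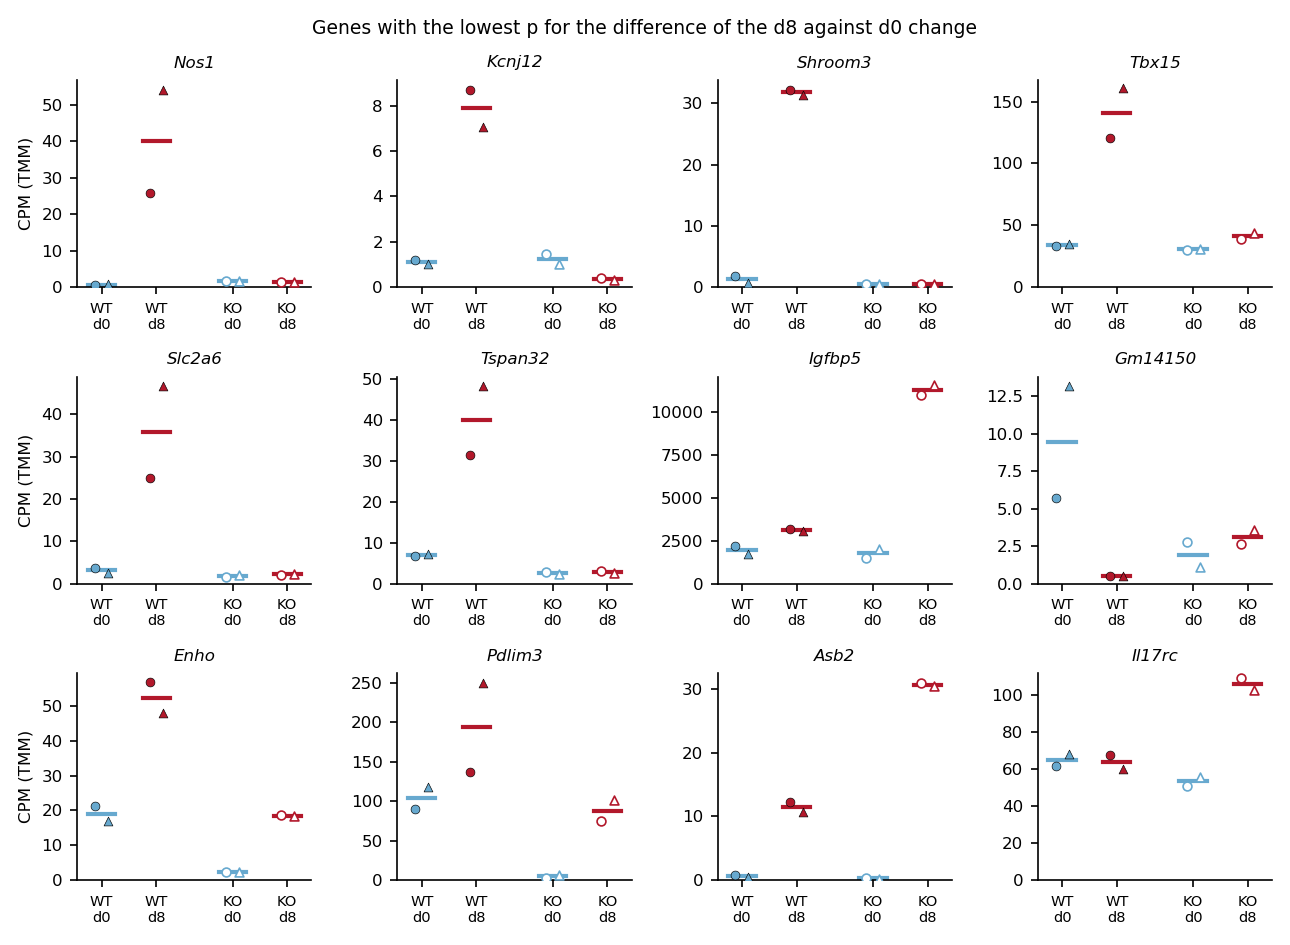
CPM after TMM normalization (linear axes) of the 12 genes with the lowest p for the difference of the changes, 6 in each direction, with filled symbols for WT, open symbols for AMPK-KO, blue for d0, red for d8, circles for replicate 1, triangles for replicate 2 and lines for group means. *Nos1*, *Shroom3* and *Slc2a6* are high in the WT d8 libraries alone, and *Igfbp5* is highest in the AMPK-KO d8 libraries; none passed after adjustment in edgeR.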

How the data were processed

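Total RNA was extracted with RNeasy columns, libraries were made with the VAHTS Total RNA-seq kit and sequenced as paired ends on an Illumina HiSeq instrument. Per the study's methods and processing notes, the authors trimmed reads with Trim Galore 0.4.5, aligned them with STAR 2.5.3a in 2 passes to GRCm38 (mm10), counted them per gene with featureCounts 1.5.3 on GENCODE M12, and deposited the raw counts, whole numbers with no normalization. The strand and multi-mapping settings are not given in the sources used here. The count table of the cells with TET2 knock-ins was not used.

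Genes were filtered with filterByExpr, counts were TMM-normalized, and 1 mean per group (WT and AMPK-KO, d0 and d8) was fitted to all 8 libraries with the quasi-likelihood test of edgeR 4.0.16 (R 4.3.3, limma 3.58.1), with 4 residual degrees of freedom and a common biological coefficient of variation of 0.281. P-values were adjusted by Benjamini-Hochberg over all 14329 genes tested, and every adjusted p in the text is from this fit unless another tool is named. All tests are two-sided. The SE is the log2 fold change divided by the root of its F statistic. A gene without a count in a group was bounded at 3 counts per library; floors and 95% intervals cover counting error only. The steps were tested on simulated data with known changes. DESeq2 1.42.0, 2 other normalizations, 2 other filters, a test against an absolute log2 fold change of 1, fits without mitochondrial and abundant noncoding RNA genes, on the 4 WT libraries alone, with a replicate block and without each library were the alternatives. Replicates differed by more than sampling noise, so none was taken for a copy. The chi-square per degree of freedom was 92.9 at d0 and 46.4 at d8 in WT cells, and 45.65 and 107.2 in AMPK-KO cells.

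CPM are TMM-normalized. TPM use the merged exon length of GENCODE M21 on GRCm38, in which 49326 of 49585 gene identifiers were found; levels of different genes are compared on this scale only. Promoter windows are from RefSeq (GRCm38.p6). A window was matched for 10444 of the 14329 genes (72.9%), under the 80% set as the minimum, so motif shares of the genes called higher and lower are void and not given. Shares over genes tested cover only those with a window, and list shares are for lists above that limit.

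The members and gene lists were chosen with earlier results of these data known, so that no list is independent evidence of its direction. Named were the 15 largest rises and falls (called, protein-coding or lncRNA, days without overlap, a minimum of 100 counts in both libraries of the day with more), up to 6 members of each list with the lowest p, the members of the lists of myogenic factors, CDK inhibitors, DNA methylation enzymes and AMPK subunits, the genes the study measures or targets, the 10 genes with the highest TPM on each day and the 6 with the lowest p of the genotype difference in each direction. Other members of the lists, among them *Mymk*, *Dock1*, *Myh2*, *Myh3*, *Myh7*, *Myh8*, *Myl2*, *Actc1*, *Tnni1*, *Tnnt2*, *Ttn*, *Des*, *Mybph*, *Casq1*, *Atp2a1*, *Chrna1*, *Chrne*, *Sgcb*, *Sspn*, *Pfkl*, *Top2a*, *Cdk1*, *Orc1*, *Ccn2* and *Ly6a*, and the cell type markers near 0, were chosen after their values were seen. A few list members are not reported here.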

Additional observations from a re-analysis of the deposited data

How the results depend on the processing

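With 2 libraries a group, the counts of calls rest on single libraries. Depth was not varied; genes at or under 3 counts a library, 0.141 to 0.165 CPM in WT cells, count as not detected. Under every alternative the median log2 fold change of all genes lay between -0.03 and 0.05, and no named gene that passed the test changed direction. Against 828 genes higher and 943 lower, DESeq2 called 1398 and 1364, a fit without a filter on low counts 1816 and 1477, the 4 WT libraries alone 662 and 537, and the test against an absolute log2 fold change of 1 called 146 and 160. That test left 12 thick filament, 6 thin filament and 7 excitation-contraction coupling genes higher and 18 replication genes lower. DESeq2 size factors (868 and 875), upper-quartile scaling (833 and 907), a mean of at least 50 counts (708 and 896) and leaving out mitochondrial and noncoding RNA genes (835 and 948) stayed within 1.5 times. For the genotype difference, DESeq2 called 60 genes and the unfiltered fit 449, against none.

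Leaving out each library in turn gave 0 to 978 genes higher, 0 to 1282 lower and 0 to 6 for the genotype difference, with a lone library assumed to vary like the other groups. The ranges were 0 to 27 for thick filament, 0 to 17 for thin filament, 0 to 18 for coupling, 0 to 42 for mitosis and 0 to 47 for replication genes. For the change of WT cells, the low ends came from leaving out WT d0 replicate 2, WT d8 replicate 1 or WT d8 replicate 2. Over the alternatives, 4901 of 5956 values of named genes kept direction and side of the threshold, 883 lost the call and 172 gained it; of 697 list counts, 379 stayed within 1.5 times. The cause was not tested.

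Adding the replicate number as a block called 1135 genes higher and 1225 lower, and none for the genotype difference. Of the named genes, 18 gained the call, among them *Cycs*, *Gap43* and *Pdlim3*, and 3 lost it, *Igfbp4*, *Tgfbr2* and *Ctsd*; none changed direction. The counts of list members higher went from 5 to 9 for the acetylcholine receptor, 1 to 3 for immediate early genes, 5 to 8 for matrix proteases and 3 to 6 for chemokines, and of members lower from 1 to 2 for the IGF axis and for matrix proteases. Deviations of same-numbered libraries from their group means correlated across genes by 0.119 to 0.324 in all 6 pairs of groups. Mitochondrial genes took the larger share of counts in replicate 1 in each group. For replicates 1 and 2 it was 1.36% and 0.568% in WT d0 and 1.43% and 0.970% in WT d8. In AMPK-KO cells it was 1.16% and 0.666% at d0 and 0.977% and 0.683% at d8. No label ties a number to a shared culture or day, and with 2 numbers a group the pairing could not be established.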
